A study of Homo sapiens with 8 samples.

Results

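Chromatin modifiers and remodelers are the enzymes and complex subunits that write, erase or read marks on histones and DNA, or that move and eject nucleosomes. The rule uses gene names and no measured value, although the set was proposed with earlier results of these data known. They were chosen by the name prefixes KMT, KDM, KAT, HDAC, SMARC, ARID, CHD, SETD, BRD, BAZ and INO80, together with EP300, CREBBP, EZH1, EZH2, EED, SUZ12, DNMT1, DNMT3A and DNMT3B. The rule took 97 of the 10105 genes in the deposited count table, and all 97 were tested. The data come from HEK293T, an established line of human embryonic kidney cells. WT cells were compared with XRN1-null cells, 1 line made with CRISPR/Cas9 and a guide to XRN1, the gene of the main cytoplasmic 5′–3′ exoribonuclease. Because the XRN1-null genotype is represented by 1 line, an effect of the genotype and a property of that line cannot be told apart. Cells of both genotypes were plated 24 h before harvest, and each gave 2 RNA-Seq libraries (mRNA abundance) and 2 Ribo-Seq libraries (ribosome-protected fragments, RPF), 8 libraries in all.

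Chromatin is opened or closed by a small number of reactions. Acetyltransferases add acetyl groups to histone tails, deacetylases remove them, and bromodomain proteins bind the acetylated tails. Lysine methyltransferases and demethylases do the same for methyl marks, of which some accompany active genes and others, such as the mark of Polycomb repressive complex 2 (PRC2), accompany silent genes. Remodelers of the SWI/SNF, ISWI, CHD and INO80 families share an ATPase motor of the SNF2 type that shifts, ejects or exchanges nucleosomes, and each motor works with several further subunits. In many of these complexes one of a pair of closely related proteins takes the same place, as SMARCA2 or SMARCA4 does for the motor of SWI/SNF.

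The RNA-Seq libraries held 33757487 to 38145433 counts and the Ribo-Seq libraries 1921641 to 4399542, of which WT replicate 1 was the shallowest. Chromatin genes took 0.89 and 0.943% of the RNA-Seq counts from WT cells, whereas the XRN1-null libraries gave them 1.32 and 1.31%. Their share of the Ribo-Seq counts was 0.584 and 0.696% for WT, compared with 0.79 and 0.787% for XRN1-null libraries. In the Ribo-Seq library with the fewest counts, WT replicate 1, the median member had 77 counts, and 94 of the 97 members had at least 10 counts in every library. XRN1, examined as a check of the labels, had more mRNA in XRN1-null cells (267 against 33.3 CPM) and fewer footprints (20.5 against 42.1 CPM). For the XRN1-null line the paper reports no detectable XRN1 protein and an intron retained in the XRN1 transcripts. It describes an accumulation of XRN1 mRNA that cannot be translated. Of 10 markers of HEK293T, 8 were in the table, with a summed mRNA level of 1190 to 1530 CPM in WT and 1260 to 1310 CPM in XRN1-null libraries. Of 10 markers of blood, endothelium, liver, fibroblasts and muscle, COL1A1 was the only one in the table, at 13.9 to 15.4 CPM in WT and 36.8 to 37.3 CPM in XRN1-null libraries, and its part in the results below was not tested. CPM are counts per 1000000 counts of the TMM-scaled library total, so all levels are relative to the other mRNAs of a library, and fewer cells that express a gene and less of its mRNA per cell cannot be told apart.

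The first comparison asked which chromatin genes had altered mRNA abundance without XRN1. In XRN1-null cells the mRNA of 44 of the 97 members rose and that of 8 fell, at a false discovery rate (FDR) below 0.005 in edgeR (quasi-likelihood F test, Benjamini-Hochberg adjusted over all 10105 genes). Of all genes tested 22.9% were called higher and 23.2% lower, against 45.4% and 8.25% of the members. The median log2 fold change of the members (XRN1-null over WT) was 0.31, with a range of -0.94 to 1.94, and that of all genes was -0.01. Positive changes were measured for 74 of the 97 members (76.3%, against 48.8% of all genes). These genes are long, and when a smooth function of gene width was removed from each library the number called higher was 30 (30.9%, against 18.1% of all genes) and the median 0.10, with 9 called lower (9.28%, against 22.4%).

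**Figure D1:**
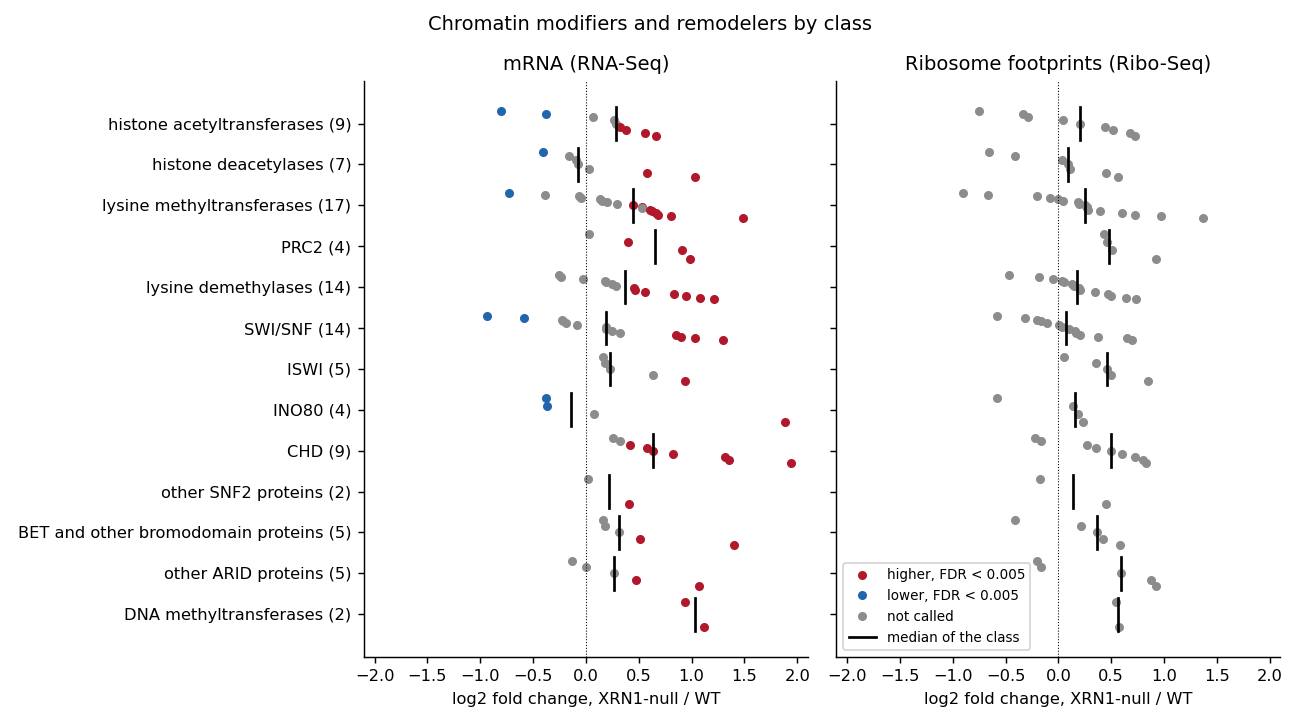
Each point is 1 of the 97 chromatin genes, placed by class (number of members in parentheses) and by its log2 fold change between XRN1-null and WT cells in RNA-Seq (left) or Ribo-Seq (right). Red and blue mark calls at an FDR below 0.005, and vertical bars mark the median of each class. The CHD class lies to the right of 0 for mRNA with 7 of 9 members called higher (22.9% of all genes were), and no member was called in Ribo-Seq.

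The CHD remodelers, named for chromodomains that bind methylated histone tails (which CHD1L lacks), had the largest number of rises among the remodelers, 7 of 9, and all 9 had a positive log2 fold change (median 0.64). Over all genes 22.9% were called higher and 48.8% had a positive log2 fold change. CHD2, a remodeler of transcribed genes, showed the largest rise of all members. Its mRNA stood at 53.7 and 59.0 CPM in the WT libraries and at 225 and 206 CPM in the XRN1-null libraries. Both XRN1-null libraries lay far above both WT libraries, and the log2 fold change was 1.94 (SE 0.08, FDR = 4.11e-06 from edgeR). CHD3 and CHD4, alternative motors of the deacetylase complex NuRD, both rose. CHD3 mRNA was measured at 78.4 and 86.0 CPM in WT and at 212 and 208 CPM in XRN1-null cells (log2 fold change 1.35). CHD4 mRNA was at 136 and 211 CPM in WT and at 305 and 309 CPM in XRN1-null cells (0.83, SE 0.17), so its WT libraries differed from each other more than its XRN1-null libraries did. CHD6, a further motor of the family, rose by 1.32, CHD7, which is mutated in CHARGE syndrome, by 0.64, CHD8 by 0.58 and CHD1L, a motor activated by poly(ADP-ribose), by 0.42. CHD1 (0.33) and CHD9 (0.26) did not pass the threshold.

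In the SWI/SNF family (14 members, with the ARID and bromodomain subunits that belong to it) 4 mRNAs rose, 2 fell and 8 were not called. Over all genes 22.9% were called higher and 23.2% lower, and no class was tested against these shares. The motor SMARCA2 rose from 25.5 and 26.4 CPM in WT to 64.4 and 62.8 CPM in XRN1-null cells (log2 fold change 1.29, SE 0.07). SMARCC2 and SMARCC1, the scaffold subunits, rose by 1.03 and 0.85, and BRD9, a subunit of the variant complex without ARID proteins, rose by 0.90. The DNA-binding subunits ARID1A (0.19), ARID1B (0.25) and ARID2 (0.32, FDR = 0.00508 from edgeR) were not called. Both falls were of accessory subunits. BRD7, a bromodomain subunit of the PBAF form, had the largest fall of all members, from 173 and 156 CPM in WT to 83.6 and 88.2 CPM in XRN1-null cells (log2 fold change -0.94, SE 0.07, FDR = 4.4e-05 from edgeR). SMARCD3, of which the alternatives SMARCD1 (-0.22) and SMARCD2 (-0.09) were not called, fell by 0.59.

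In the INO80 complex, which slides and exchanges nucleosomes, the motor and 2 of its small subunits moved in opposite directions. INO80 itself rose from 40.9 and 40.2 CPM in WT to 151 and 148 CPM in XRN1-null cells (log2 fold change 1.88, SE 0.06, FDR = 2.53e-06 from edgeR). INO80E fell from 87.1 and 83.8 to 66.8 and 65.0 CPM and INO80C from 33.5 and 35.4 to 27.0 and 26.4 CPM. For both subunits the libraries of the 2 genotypes were apart by little, with log2 fold changes of -0.37 each, and INO80C lost its call with the correction for gene width (FDR = 0.146 from edgeR) and with scaling to library totals (FDR = 0.00666 from edgeR). The subunit INO80B was at 0.08. Among the ISWI motors and their partners 1 of 5 rose (22.9% of all genes did), BAZ1B (0.94), a partner of the motor SMARCA5 (0.18). BAZ1A, another partner, was just outside the threshold (0.64, FDR = 0.00552 from edgeR). SMARCAD1, a motor of heterochromatin, rose by 0.40, and SMARCAL1, which rewinds DNA at stalled forks, was at 0.02.

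Among the enzymes of the methyl marks, 8 of 17 lysine methyltransferases rose and 1 fell, and 7 of 14 lysine demethylases rose and none fell at this FDR. The shares over all genes were 22.9% higher and 23.2% lower. SETD4, a methyltransferase of the SET domain family, rose most among the methyltransferases. Its mRNA was at 23.4 and 21.7 CPM in WT and at 63.6 and 63.0 CPM in XRN1-null cells, without overlap (log2 fold change 1.49, SE 0.07, FDR = 6.61e-06 from edgeR). Of the KMT2 enzymes that methylate histone H3 at promoters and enhancers, KMT2A (0.63), KMT2B (0.66) and KMT2C (0.53) rose, and KMT2D was not called (0.53, SE 0.17). KMT2E, a SET domain protein without an established histone methyltransferase activity, rose by 0.68. SETDB1, which lays down a silencing mark, rose by 0.81, SETD5 by 0.60 and SETD2, which marks transcribed gene bodies, by 0.45. SETD1A, another promoter methyltransferase, was the 1 that fell, from 143 and 156 to 89.9 and 90.7 CPM (log2 fold change -0.73, SE 0.07).

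The demethylases that rose were KDM5A (1.22) and KDM5B (0.94), which remove the promoter mark, KDM3A (1.08), KDM4A (0.45) and KDM4B (0.56), which act on silencing marks, KDM6A (0.46), which removes the PRC2 mark, and KDM2A (0.84). KDM5A mRNA was measured at 51.4 and 61.3 CPM in WT and at 138 and 123 CPM in XRN1-null cells. KDM1A, the flavin-dependent demethylase and the most abundant of the class per length, was at -0.03. In PRC2, 3 of 4 subunits rose, where 22.9% of all genes did. EZH2, the catalytic subunit of dividing cells, was at 64.3 and 70.6 CPM in WT and at 127 and 126 CPM in XRN1-null cells (0.91), and its alternative EZH1 rose by 0.99. SUZ12, the scaffold, rose by 0.40, and EED, which reads the mark, was at 0.03. Both DNA methyltransferases in the table rose. DNMT1, which copies methylation after replication, was at 151 and 195 CPM in WT and at 372 and 379 CPM in XRN1-null cells (1.12, SE 0.11), and DNMT3B, which sets methylation anew, was at 36.7 and 47.2 against 79.1 and 81.7 CPM (0.94).

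Among the enzymes of acetylation, of 9 acetyltransferases 4 rose and 2 fell. For comparison with this class and the deacetylases, 22.9% of all genes rose and 23.2% fell. KAT7 (0.67), KAT6B (0.56), KAT6A (0.38) and EP300 (0.32) rose. KAT8, the main acetyltransferase of histone H4 on active chromatin, fell from 29.8 and 28.1 CPM in WT to 16.7 and 16.5 CPM in XRN1-null cells (log2 fold change -0.80, SE 0.08), and CREBBP fell by 0.38. Of 7 deacetylases 2 rose and 1 fell, and the median log2 fold change of the class was -0.08. HDAC11 (1.03) and the cytoplasmic tubulin deacetylase HDAC6 (0.58) rose. HDAC3, the enzyme of the NCoR corepressor, fell from 149 and 139 to 108 and 109 CPM (-0.41). HDAC1 and HDAC2, the shared catalytic subunits of several corepressor complexes, were at -0.09 and -0.16 and were not called. The smallest falls, of HDAC3, CREBBP, INO80E and INO80C, were each lost when either XRN1-null RNA-Seq library was left out, which left 4 members called lower (4.12%, against 11 and 10.9% of all genes), whereas 14 were called lower without WT RNA-Seq replicate 1 (14.4%, against 30.8% of all genes).

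Readers of acetylated tails include the most highly counted member. BRD2, a BET protein that binds acetylated histone H4 at promoters, reached 20335 and 20356 RNA-Seq counts in WT, against 59859 and 60982 without XRN1, the highest count of any member in each of the 4 RNA-Seq libraries. Scaled, this was 574 and 620 CPM against 1582 and 1567 CPM (log2 fold change 1.40, SE 0.06, FDR = 6.07e-06 from edgeR). BRD1 (0.31), BRD3 (0.16) and BRD8 (0.18) were not called. Of the ARID proteins outside SWI/SNF, ARID4A (1.07) and ARID4B (0.48), both subunits of the SIN3 deacetylase complex, rose.

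Compared per kilobase of gene width, the mRNA levels of the members in WT cells spanned 1.77 CPM per kb (ARID5B) to 155 CPM per kb (HDAC1), with a median of 13.8. SMARCB1, a core subunit of SWI/SNF, followed at 125 CPM per kb and BRD2 at 110, ahead of SMARCE1 at 78.6 and HDAC3 at 74.0. In XRN1-null cells BRD2 led at 289 CPM per kb, ahead of HDAC1 at 145 and SMARCB1 at 108. Other members with the highest WT level of their class were SMARCA5 (23.2), ARID3B (22.1), CHD1L (47.1), KAT2A (45.9), DNMT1 (31.6), SUZ12 (25.2), INO80E (39.4), KDM1A (55.3), KMT5A (41.7) and SMARCAL1 (11.9), all in CPM per kb.

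Several of these genes belong to pairs whose coding sequences are alike, so it was examined whether a read could be assigned to one of the pair. The longest stretch of identical coding sequence between SMARCA2 and SMARCA4 and between CHD2 and CHD1 was 26 bases in each case, and between BRD2 and BRD3 it was 18 bases, all shorter than the 29 nt of the shortest footprints that were counted. These stretches are shown because the pairs differ in their mRNA changes. They are printed 5′ to 3′ from the GENCODE reference transcripts, each with the 2 flanking bases on either side, and capitals mark the bases at which the pair differs.
SMARCA2, coding bases 1286 to 1315: cCgagaagctggagaagcagcagaagatTg
SMARCA4, coding bases 1358 to 1387: cTgagaagctggagaagcagcagaagatCg
CHD2, coding bases 1946 to 1975: tTcagaattccctcaaagagctctggtcCt
CHD1, coding bases 1937 to 1966: tAcagaattccctcaaagagctctggtcTt
BRD2, coding bases 1348 to 1369: tAtgccaagatgccagatgaAc
BRD3, coding bases 1234 to 1255: tTtgccaagatgccagatgaGc
For CHD3 and CHD4 the longest run was 37 bases, for SMARCC2 and SMARCC1 23 and for ARID4A and ARID4B 20. On GRCh37, the coordinates of hg19 used by the authors, SMARCA2 lies on chromosome 9 (1980290 to 2193624, plus strand), CHD2 on chromosome 15 (93429433 to 93571226, plus strand) and BRD2 on chromosome 6 (32936371 to 32949282, plus strand).

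Against the rise of SMARCA2, its alternative SMARCA4 was at 218 and 268 CPM in WT and at 280 and 277 CPM in XRN1-null cells, a log2 fold change of 0.19 (SE 0.10) that was not called. In WT cells the level of SMARCA4 per length was 41.4 CPM per kb against 3.77 for SMARCA2, and in XRN1-null cells it was 47.4 against 9.24. The BET genes BRD2 and BRD3 were similarly unequal, at 1.40 and 0.16, of which the latter was not called. EP300 and CREBBP, closely related acetyltransferases, moved apart. EP300 went from 124 and 120 to 158 and 146 CPM (0.32) and CREBBP from 160 and 146 to 123 and 114 CPM (-0.38), 2 changes of small size. CREBBP lost its call with scaling to library totals (FDR = 0.00774 from edgeR) and kept it with the correction for gene width. KDM5A and KDM5B rose while KDM5C (0.25) was not called, and KDM3A rose while KDM3B (0.28) was not called. The difference between the changes of 2 paralogs was not tested.

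**Figure D2:**
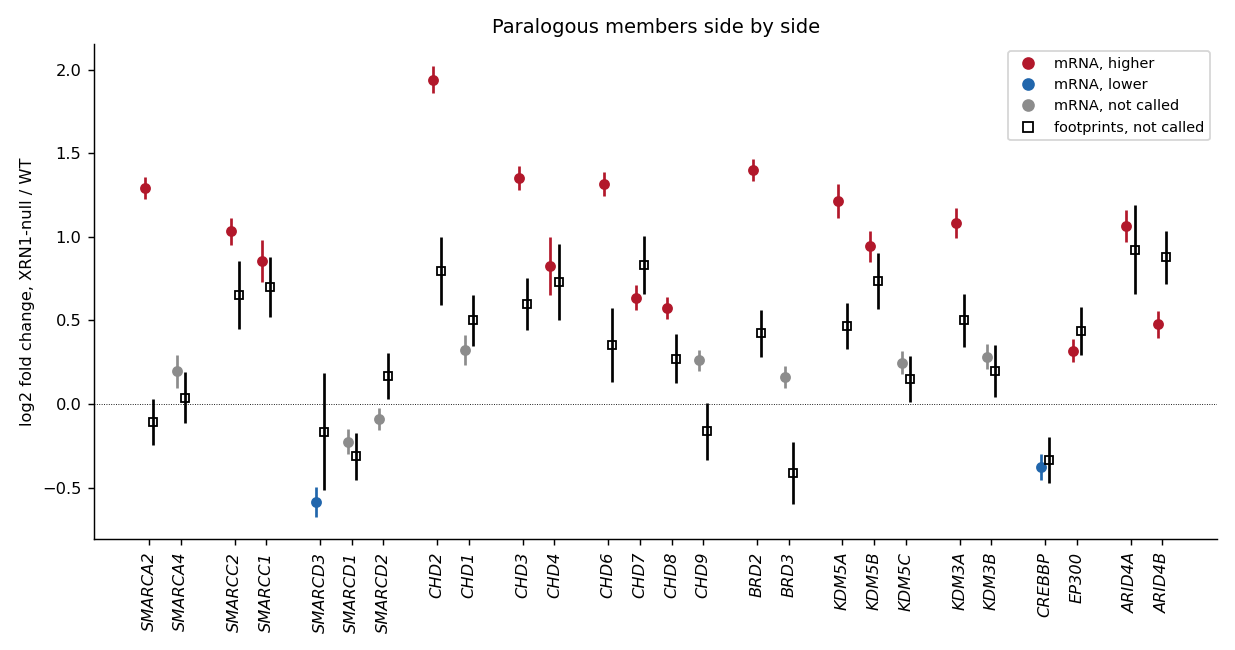
Log2 fold changes between XRN1-null and WT cells for members with close relatives, grouped by family, for mRNA (filled circles, colored by the call at an FDR below 0.005) and footprints (open squares). Error bars are standard errors from the edgeR fit. For mRNA, SMARCA2 (1.29) is plotted above SMARCA4, CHD2 (1.94) above CHD1 and BRD2 (1.40) above BRD3, whereas for footprints SMARCA2 (-0.11) is below SMARCA4 (0.04).

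The second comparison asked whether ribosome occupancy of the same genes differed. In Ribo-Seq no member passed the FDR of 0.005 in edgeR in either direction, where 0.633% of all genes were called higher and 1.14% lower. The paper, which also used edgeR, reports more genes with changed footprints than were called here. At an unadjusted p below 0.05 the edgeR test gave 38 members higher and 10 lower (39.2% and 10.3%), against 16.2% and 16.8% of all genes. At an FDR below 0.05 it gave 19 higher and 4 lower (19.6% and 4.12%), against 7.07% and 8.38% of all genes. DESeq2 called 1 member, ARID4B, at an FDR below 0.005 (1.1%, against 1.05% of all genes called higher). In 55 members both XRN1-null libraries lay above both WT libraries and in 16 below them (56.7% and 16.5%), against 32.1% and 32.3% of all genes. The median RPF log2 fold change of the members was 0.22 and that of all genes -0.003. The number called depended on the WT libraries, with 34 higher and 4 lower when WT Ribo-Seq replicate 2 was left out (12.7 and 10.8% of all genes) and 13 and 3 without WT Ribo-Seq replicate 1 (5.82 and 7% of all genes).

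ARID4B was closest to the threshold. Its footprints were at 41.1 and 55.4 CPM in WT and at 89.4 and 93.0 CPM in XRN1-null cells, with no overlap (log2 fold change 0.88, SE 0.16, FDR = 0.00599 from edgeR). SETD1A came next, at 44.3 and 40.0 CPM in WT and at 23.6 and 20.6 CPM in XRN1-null cells (-0.91, SE 0.17, FDR = 0.00605 from edgeR). For both genes the footprints and the mRNA had the same sign of change. KMT2C was at 54.7 and 50.1 against 81.9 and 89.9 CPM (0.72, SE 0.14, FDR = 0.00874 from edgeR), and it was followed by CHD7 (0.83, FDR = 0.0108 from edgeR). All 4 PRC2 subunits had RPF log2 fold changes of 0.43 or more, up to 0.92 for EZH1, and the DNA methyltransferases DNMT1 and DNMT3B were at 0.54 and 0.58. None of these passed the FDR of 0.005 in the edgeR fit with genotype as the only term. Of the 44 members whose mRNA rose, 41 had a positive RPF log2 fold change (93.2%, against 83.1% of the 2313 genes of the table whose mRNA rose), with a median of 0.48 beside 0.82 for their mRNA. Of the 8 members whose mRNA fell, 7 had a negative RPF log2 fold change (87.5%, against 94.1% of the 2344 genes whose mRNA fell). Across the 97 members the 2 changes had a Spearman correlation of 0.656, and across all genes 0.691. These are descriptions across genes of the same 8 libraries, and genes are not independent replicates.

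**Figure D3:**
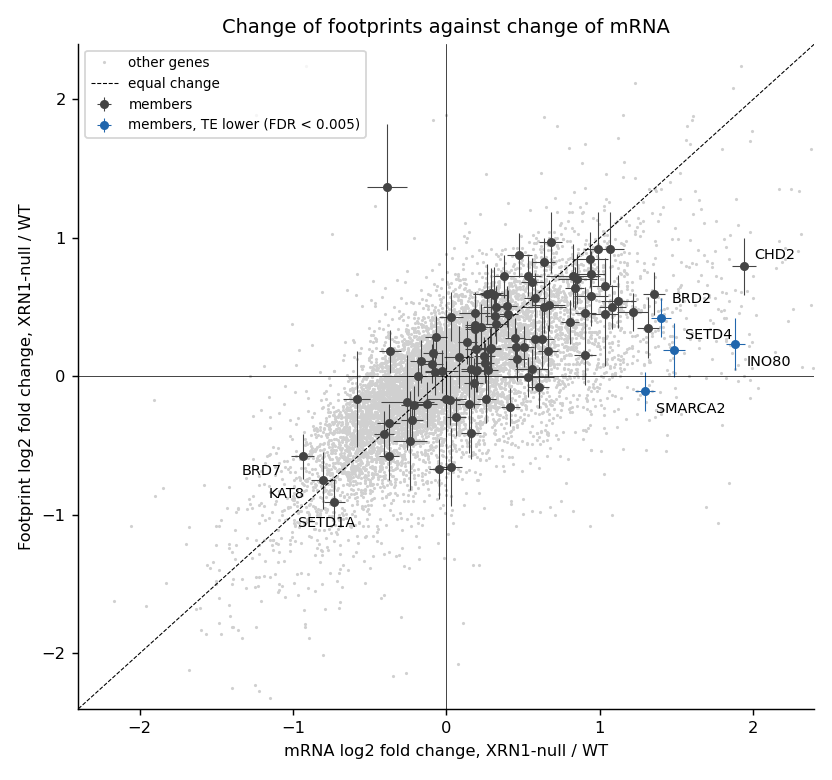
Log2 fold change of footprints against that of mRNA (XRN1-null over WT) for the 97 members (dark points, error bars are standard errors from edgeR) and for the other genes in the table (grey, those beyond 2.4 not drawn). Members with a lower TE are blue. BRD2, SETD4, INO80 and SMARCA2 lie below the dashed line of equal change, with footprint changes between -0.11 and 0.42.

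The last comparison asked for which members footprints and mRNA changed unequally. The translational efficiency (TE) of a gene divides its footprints by its mRNA, and an assay by genotype interaction over all 8 libraries tested whether it changed. At an FDR below 0.005 the TE of 4 members fell (4.12%) and that of none rose in edgeR, against 1.78% and 0.0495% of all genes. DESeq2 called 9 members lower (9.28%) and none higher at the same FDR, against 4.49% and 0.337% of all genes. At an unadjusted p below 0.05 the edgeR test gave 4 members higher and 23 lower (4.12% and 23.7%), against 8.76% and 14.6% of all genes. At an FDR below 0.05 it gave 10 lower (10.3%) and 2 higher (2.06%), against 6.46% and 1.02% of all genes. The 4 genes were INO80, SMARCA2, SETD4 and BRD2, a pair of remodeling motors, a methyltransferase and an acetyl reader. All had mRNA that rose by 1.29 or more and footprints that were not called.

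INO80 had footprints at 17.7 and 18.1 CPM in WT and at 21.6 and 20.6 CPM in XRN1-null cells, beside the rise of its mRNA given above. Its TE, as the ratio of the group means, was 0.442 in WT and 0.141 in XRN1-null cells (log2 fold change -1.65, SE 0.17, FDR = 0.000177 from edgeR). SMARCA2 footprints were at 72.9 and 67.1 CPM in WT and at 63.8 and 65.2 CPM in XRN1-null cells, so that the footprint libraries of the 2 genotypes lay close together while its mRNA libraries were far apart. Its TE was 2.70 in WT and 1.01 in XRN1-null cells (-1.40, SE 0.13, FDR = 8.56e-05 from edgeR). This call was kept when each of the 8 libraries was left out in turn.

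SETD4 footprints were at 15.6 and 16.8 CPM in WT and at 18.4 and 19.0 CPM in XRN1-null cells, and rested on 30 to 74 counts per library. The TE of SETD4 was 0.718 in WT and 0.296 in XRN1-null cells (-1.30, SE 0.19, FDR = 0.00163 from edgeR). BRD2 footprints were at 232 and 270 CPM in WT and at 335 and 340 CPM in XRN1-null cells, a smaller separation than that of its mRNA (RPF log2 fold change 0.42, FDR = 0.0584 from edgeR). The TE of BRD2 was 0.420 and 0.214 (-0.98, SE 0.14, FDR = 0.00157 from edgeR). The TE calls of SETD4 and BRD2 were lost without XRN1-null RNA-Seq replicate 1, XRN1-null RNA-Seq replicate 2, XRN1-null Ribo-Seq replicate 1 or XRN1-null Ribo-Seq replicate 2, and that of SETD4 also without WT Ribo-Seq replicate 2. The TE call of INO80 was lost without XRN1-null Ribo-Seq replicate 1 (FDR = 0.00568 from edgeR).

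**Figure D4:**
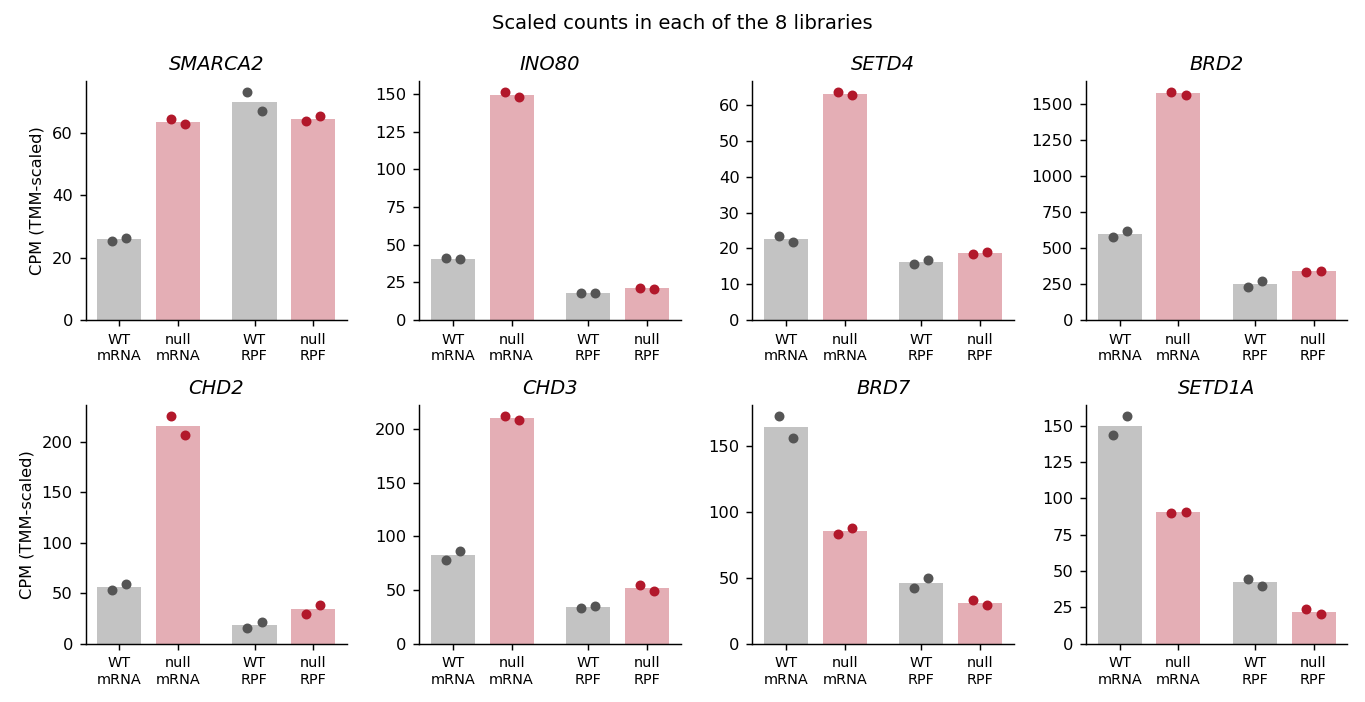
CPM of 8 members in each of the 8 libraries, for mRNA and RPF in WT (grey) and XRN1-null (red) cells. Bars are means of 2 libraries and points the libraries. In SMARCA2, INO80, SETD4 and BRD2 the mRNA bars differ between genotypes by more than the RPF bars, whereas BRD7 and SETD1A are lower in XRN1-null cells for both.

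At the looser FDR of 0.05 the TE of 6 further members was lower, those of CHD2 (-1.15), CHD6 (-0.98), CHD3 (-0.75), KDM5A (-0.75), SETD5 (-0.68) and CHD1L (-0.64), so that 4 of the 9 CHD genes were among the 10. CHD2 footprints were at 15.6 and 21.6 CPM in WT and at 29.6 and 38.7 CPM in XRN1-null cells, higher in both XRN1-null libraries but by less than its mRNA. CHD4, the relative of CHD3, had a TE log2 fold change of -0.11 (SE 0.33) and was not called. The 2 members higher at this FDR were INO80C (0.56) and SETD9 (1.77), the latter on 3 and 9 footprint counts in the WT libraries, against 20 and 16 without XRN1. The median TE change of the 97 members was -0.15, that of all genes 0.01, and the median of the members was 0.05 when WT Ribo-Seq replicate 2 was left out. Of the 44 members whose mRNA rose, 35 had a negative TE change (79.5%), against 84.7% of all genes whose mRNA rose. The same mRNA values enter the TE change with a negative sign. A set chosen for a rise of mRNA therefore leans to negative TE changes, and these shares are not a test of translation. The TE of the members as a ratio of group means had a median of 0.620 in WT and 0.581 in XRN1-null cells, beside 0.820 and 0.798 over all genes.

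The median width of the members in the count table was 5635 bases against 3225 for all genes, with 25 of the 97 at or under the latter, and the Spearman correlation of width with the mRNA log2 fold change was 0.488 over the 97 members and 0.35 over all genes, again as descriptions across genes of the same libraries. Over the whole table, the median mRNA change went from -0.26 in the quartile of shortest genes, through -0.04 and 0.04, to 0.23 in the quartile of longest genes. Of the members, 7, 18, 19 and 53 fell in these quartiles, and 0, 3, 8 and 33 of them were called higher. These are 0, 16.7, 42.1 and 62.3% of the members in each quartile, against 9.42, 17.9, 24.1 and 40.1% of all genes. In the quartile of shortest genes 4 of the 7 members fell and none rose at this FDR, where 39.5% of all genes were called lower. The 2 members of the longest quartile that fell were SETD1A and CREBBP (10.6% of all genes there were called lower). The part of gene width in the results was not tested beyond the corrected fit given above.

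**Figure D5:**
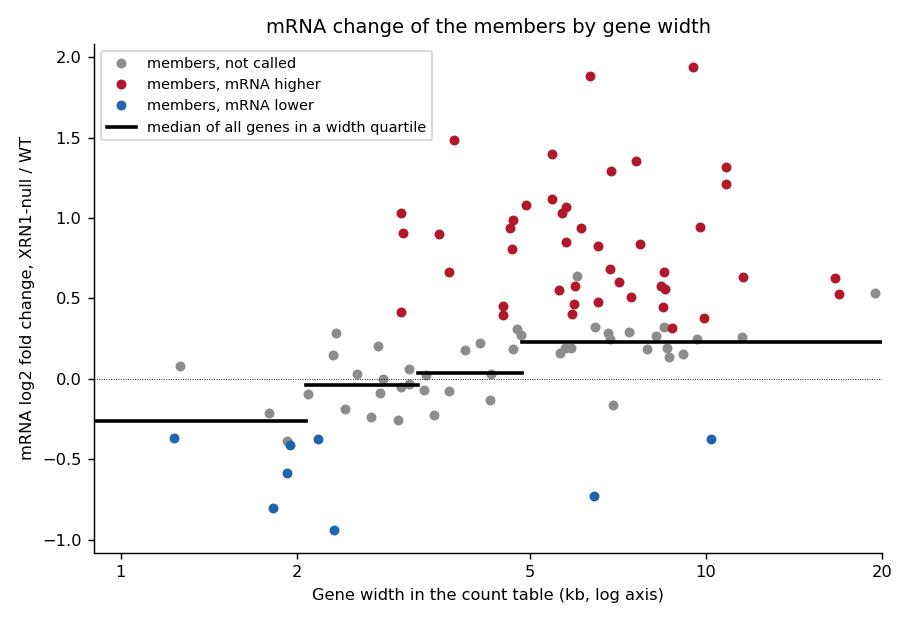
mRNA log2 fold change (XRN1-null over WT) of the 97 members against gene width in kb on a log axis, colored by the call at an FDR below 0.005. Black lines give the median of all genes in each quartile of width, drawn from 0.9 to 20 kb only. Most members called higher lie to the right, where the median of all genes is 0.23, and 6 of the 8 members called lower are under 3 kb wide.

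In GENCODE release 44 mapped to GRCh37 all 97 members were found, with a median coding length of 3288 bases and 21 exons in the reference transcript, against 1362 bases and 9 exons over the 9552 genes matched. An annotated transcript predicted to undergo nonsense-mediated decay was listed for 71 members (73.2%), against 49.1% of all matched genes. Among the members it was listed for 37 of the 44 called higher (84.1%), 4 of the 8 called lower and 30 of the 45 not called. For all genes called higher it was 59.5% and for all genes called lower 39%. The number of annotated transcripts differed as well. Its median was 20.5 for the members called higher and 13 both for those called lower and for those not called, against 8 for all matched genes. A transcript with a retained intron was listed for 94.8% of the members, against 62% of all matched genes. The counts per gene do not separate transcripts, so the part of these transcripts in the changes was not tested.

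Some members share sequence with other genes. In the reference coding sequence, 39 members had no 29-base window in common with any other gene, 20 had under 1% of windows shared, 19 had 1 to 10% and 19 had 10% or more. SETD4 and BRD2 had none, SMARCA2 0.886% and INO80 2.52%. BRD7 shared 74.2% of its windows, ARID3B 70.3%, KMT5A 55.3%, SUZ12 27.0%, KAT7 25.4% and KMT2C 11.8%, at least in part with pseudogenes. The values of these members are uncertain where reads could be split between copies. CHD4 (98.5%) and CHD1L (91.5%) share nearly all windows with an overlapping gene model at the same locus, and INO80B (99.9%) with the readthrough gene INO80B-WBP1. KDM4A (60.8%) and KMT2A (31.4%) share windows with such overlapping models, as does SMARCE1 (95.3%), which also shares windows with pseudogenes. CHD2 overlaps the long noncoding RNA CHASERR on the same strand. Of the genes with lower TE, exons of BRD2 overlap opposite-strand genes, HLA-DMA among them, by 632 bases and a same-strand gene by 243, and SMARCA2, INO80 and SETD4 overlap antisense genes by 420, 148 and 95 bases. The sources used here do not give whether reads were counted by strand, so antisense reads cannot be told apart.

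Other chromatin genes, from a list of 117 symbols that the name rule does not take, were counted for comparison. Of the 98 in the table the mRNA of 34 rose and that of 11 fell (34.7 and 11.2%, against 22.9 and 23.2% of all genes), with a median log2 fold change of 0.20, and none was called for RPF or TE. The RPF median was 0.08 and the TE median -0.11. Among them ATRX, a SNF2 motor of heterochromatin, rose by 1.19, BPTF, the partner of the ISWI motors in NURF, by 1.14, PBRM1, the polybromo subunit of SWI/SNF, by 1.13 and EPC1, a subunit of the acetyltransferase complex NuA4, by 1.21. The largest falls were those of BCL7C (-0.99), CBX5 (-0.64), MEAF6 (-0.61) and DPY30 (-0.52). RBBP4, a histone chaperone shared by PRC2 and NuRD, and MTA1, a NuRD subunit, had the smallest of the 11 falls, at -0.33 and -0.30. These genes were named after their values were seen.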

How the data were processed

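RNA-Seq and Ribo-Seq libraries of WT and XRN1-null HEK293T cells were analysed, 2 per genotype and assay, assigned by the sample labels. The deposited counts are raw counts per gene. The authors made them with QuasR from TopHat2 alignments to hg19, after depleting rRNA in silico (Bowtie2), and state an FPKM cutoff for the genes kept. In Ribo-Seq only footprints of the most periodic lengths entered the counts. Tool versions and gene models are not given in the sources used here. Deposited fold changes, p-values and TE estimates of the authors were not used. The paper reports more changed genes in each assay and for TE than were called here.

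The raw counts were tested with edgeR 4.0.16 in R 4.3.3 (glmQLFit and glmQLFTest). TMM factors were computed within each assay, genotype was the only term for mRNA and RPF, and TE was the interaction of assay and genotype. P-values were adjusted over all 10105 genes and called at an FDR below 0.005. The SE was taken as the size of the log2 fold change over the square root of F. The test was also run on simulated counts, with far fewer genes changed than were called for mRNA here and a fixed dispersion for each assay. That run therefore does not bear on the calls in these data. With 2 libraries per group the p-values rest on the spread between these libraries, which may be technical, and counts include PCR duplicates. No filter was applied to low counts.

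Members, classes and lists were chosen with earlier results of these data known. The genes named were XRN1, up to 12 rises and 12 falls called per contrast that had the same sign in all 4 WT and XRN1-null pairings, their paralogs and the member of each class with the highest WT mRNA per length. Further genes were added after their values were seen, and 1 item is not reported here. Alternatives were RLE factors, library totals, DESeq2 1.42.0, replicate blocks, at least 10 counts in every library, an FDR of 0.05, an offset for gene width (loess, span 0.3) and leaving out each library. Positions, transcripts and sequences came from GENCODE release 44 mapped to GRCh37, read with Python 3.11.15.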

Additional observations from a re-analysis of the deposited data

Results flagged for a closer look

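The effect of the genotype differed between the 2 assays, by the test of the interaction in edgeR, for 4 chromatin genes. The TE log2 fold change was -1.65 for INO80, -1.40 for SMARCA2, -1.30 for SETD4 and -0.978 for BRD2. Over the 8 fits that each left out 1 library the values ranged from -1.69 to -1.62 for INO80, from -1.46 to -1.35 for SMARCA2, from -1.38 to -1.22 for SETD4 and from -1.07 to -0.845 for BRD2. The call was lost in 1 of the 8 fits for INO80, 5 for SETD4, 4 for BRD2 and 0 for SMARCA2.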

How the results depend on the processing

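Among the genes called by rule, 263 values kept direction and side of the threshold, 21 lost the call and 0 reversed. Of the counts and medians, 86 stayed within the spread between replicates or 1.5 times, 27 moved and 1 reversed. The mRNA median of 0.309 became 0.366 with library totals and 0.0996 with the gene width offset, and the all-gene median moved by less than 0.1 under each scaling. Members called higher for RPF numbered 1 with library totals (1.03%, against 1.32% of all genes), 1 with DESeq2 (1.1 against 1.05%) and 19 at an FDR below 0.05 (19.6 against 7.07%), and those called lower numbered 1 with library totals (all genes, 1.62%), 1 with the gene width offset (1.36%) and 4 at an FDR below 0.05 (8.38%). Members with lower TE numbered 9 with DESeq2 (9.28%, against 4.49% of all genes) and 10 at an FDR below 0.05, those with higher TE 2 at that FDR, and the TE median was -0.0249 with the gene width offset. The cause of these shifts was not tested. When each library was left out in turn, the mRNA calls ranged from 33 to 63 higher (all genes, 16.2 to 33.7%) and from 4 to 14 lower (10.9 to 33.5%), with a median of 0.299 to 0.349. The RPF calls ranged from 0 to 34 higher (all genes, 0.703 to 12.7%) and from 0 to 4 lower (0.713 to 10.8%), with a median of 0.182 to 0.339. TE calls ranged from 1 to 6 lower (all genes, 0.188 to 2.28%, and 1 member without XRN1-null Ribo-Seq replicate 1), with a median of -0.174 to 0.0511, reversed at 0.0511 without WT Ribo-Seq replicate 2. A lone library left in a group was assumed to vary like the other groups. Replicate numbers were shared between genotypes, but the labels do not say that equal numbers share a batch, and with 2 pairs the correlation of deviations from the group means (0.19 in RNA-Seq, 0.0803 in Ribo-Seq) does not decide it. With the replicate block 54 members were called higher for mRNA (55.7%, against 28.3% of all genes), and 16 higher and 3 lower for RPF (16.5 and 3.09%, against 6.1 and 6.58%). With a culture replicate block, which pairs the RNA-Seq and Ribo-Seq libraries of equal number (correlation 0.355 in WT, 0.0326 in XRN1-null cells), 9 were called lower for TE (9.28%, against 4.3%). The depth of Ribo-Seq, with 1921641 counts in WT replicate 1, was below that of every RNA-Seq library.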

Other observations

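Between the WT cultures, the level of chromatin genes was lower in replicate 1 than in replicate 2 for most members in both assays, for 66 of the 97 in RNA-Seq (68%, against 49.9% of all genes) and for 74 in Ribo-Seq (76.3%, against 49.6%). CHD4, a motor of NuRD, was at 136 and 211 CPM for mRNA and at 110 and 211 CPM for footprints. The corresponding numbers in XRN1-null cells were 38 (39.2%, against 47.8% of all genes) and 59 (60.8%, against 52.1%). The labels do not say that an RNA-Seq and a Ribo-Seq library of equal number came from one culture.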
